A study of Paralichthys olivaceus with 24 samples.

Results

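Glutamine synthetase (glula), arginase (arg2) and the amino acid transporter genes slc7a5 and slc7a8a were followed in muscle of olive flounder (Paralichthys olivaceus), a farmed flatfish, across 4 water temperatures. These 4 genes were picked by name out of 11646 gene rows with values. The rows annotated arg2 and slc7a5 carry those symbols in the table, whereas glula and slc7a8a are the RefSeq symbols of rows listed as LOC109640162 and LOC109634826. The names were chosen from the levels described here, so the levels of the 4 genes are given as a description, without a test. The fish were 9 months old, were acclimated to 12 °C and stood in 8 treatment groups of 15 fish. The libraries are those of series C, as the letter in the sample titles has it, from muscle at 12, 18, 23 and 28 °C, with 1 library at each temperature and 12 °C as the baseline. The study used an acute regime, with moves to warmer water at intervals of 3 h, and a chronic regime, warmed by 3 °C per h and held for at least 20 h. Which of them the letter C stands for is not spelled out in the labels. No genotype or drug distinguishes the groups. The sex of the fish, the muscle sampled and whether a library pools several fish are not stated in the labels.

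Glutamine synthetase joins ammonia to glutamate, and in mammalian muscle the glutamine it makes is a main form in which amino nitrogen leaves the tissue. Arginase splits arginine into ornithine and urea, and ornithine is the start of polyamine and proline synthesis. The products of slc7a5 and slc7a8 are known in mammals as light chains that exchange neutral amino acids, leucine among them, across the cell membrane. Each of them works as a pair with the same heavy chain, the product of slc3a2. Intracellular leucine, arginine and glutamine are in turn read by the mTOR pathway, which sets the rate of protein synthesis, and by the ATF4 pathway, which answers a shortage of amino acids.

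The values are RPKM, reads scaled by transcript length and library size, so levels can be set beside each other between genes. Every row of the table is at least 2-fold apart from 12 °C in the authors' deposited table in 1 or more of its 3 comparisons. Genes that stayed within that bound have no row here, and shares of rows are not shares of the transcriptome. Relative depths, read from the smallest values, were 1.004, 0.981 and 1.013 times that of the 12 °C library at 18, 23 and 28 °C, while the absolute depth is unknown. A list of 30 muscle marker genes to check the tissue matched 9 rows, with atp2a1 and atp2a1l under 1 symbol. The parvalbumin gene pvalb1 was between 2336 and 6441 RPKM. The muscle genes mylpf and atp2a1l were each listed at 0 in 1 library (18 and 23 °C) and between 14940 and 25861 RPKM in the other 3. The 18 °C library stood apart by its liver markers, whose 34 rows summed to 61.1, 5513, 71.7 and 545 RPKM from 12 to 28 °C. The 6 exocrine pancreas rows summed to 10.5, 178.0, 15.1 and 41.97 RPKM in the same order. The connective, skin and myelin markers (6 rows) summed to 119.9, 114.2, 71.7 and 52.1 RPKM. No endothelial gene of that list had a row. Most of the sum came from postnb (57.4, 52.1, 27.8 and 12.6 RPKM) and the myelin gene mbpa (44.3, 44.0, 31.4 and 20.9 RPKM). Only pdgfrb was higher at 28 °C than at 12 °C (10.9 against 2.86 RPKM). The red blood cell markers (7 rows) summed to 71.8, 53.7, 57.9 and 29.4 RPKM. Nearly all of it was from nt5c3a (70.9, 52.6, 57.4 and 28.6 RPKM), with every other row below 1 RPKM. That sum is thus the level of 1 gene and no measure of red blood cells. In bulk tissue, fewer cells of a type and less RNA per cell cannot be told apart.

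All 4 genes were at their highest in the 12 °C library and lower in every warmer one. The glutamine synthetase gene glula stood at 72.1, 20.3, 9.20 and 14.6 RPKM from 12 to 28 °C. Its 12 °C library was thus the high one, and the 3 warmer libraries kept 28.1%, 12.8% and 20.2% of that level. Arginase arg2 stood at 36.0, 7.72, 4.01 and 32.0 RPKM. It was low in the 2 middle libraries alone, with 21.4% and 11.1% of the 12 °C level at 18 and 23 °C and 88.8% at 28 °C. The transporter gene slc7a5 stood at 18.3, 4.55, 2.48 and 1.495 RPKM, and so became lower with each step of warming. It kept 24.9%, 13.6% and 8.18% of its 12 °C level. The second transporter gene, slc7a8a, stood at 31.3, 17.0, 11.8 and 2.25 RPKM. It too was lower at each step, but it kept 54.3% and 37.6% at 18 and 23 °C and dropped to 7.19% at 28 °C.

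**Figure D1:**
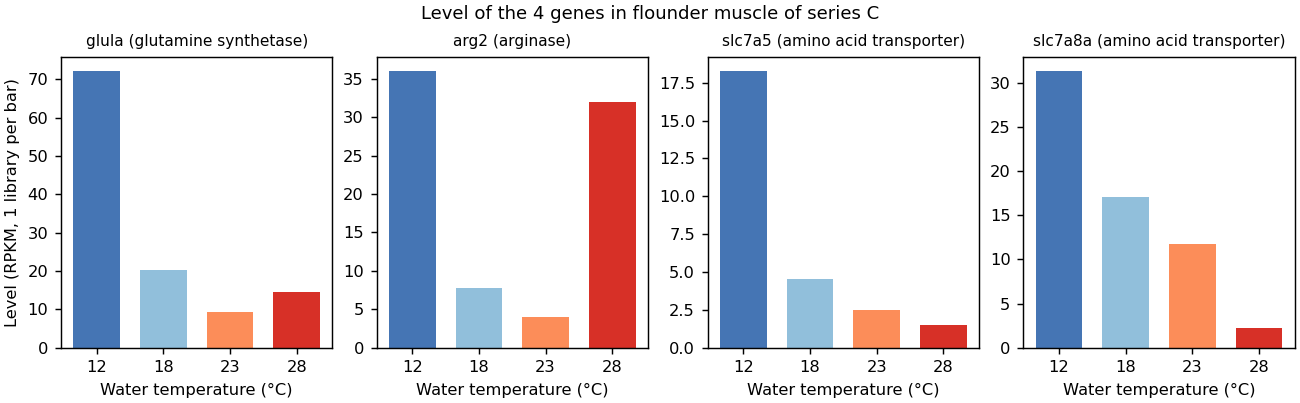
Level of glula, arg2, slc7a5 and slc7a8a in RPKM (vertical axes, each with its own scale from 0) against water temperature in °C. Each bar is 1 library and has no error bar. The 12 °C bar is the tallest in every panel, and only arg2 comes back near it at 28 °C (32.0 against 36.0 RPKM).

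Folds below are log2 of the ratio of RPKM + 1, which understates the change of low genes, and a gene counts as lower or higher at 2-fold or more where the 2 libraries compared average 1 RPKM or above. They have no error, since no temperature has a second library, and the 3 comparisons with 12 °C share that library. At 18 °C the log2 folds over 12 °C were -1.78 for glula, -2.09 for arg2, -1.80 for slc7a5 and -0.84 for slc7a8a. Thus 3 of the 4 genes were lower, beside 2.68% of the 4097 rows that met the minimum. At 23 °C the folds were -2.84, -2.89, -2.47 and -1.34 in the same order, and all 4 genes were lower, beside 10.8% of 3793 rows. Counted from the most negative fold, arg2, glula and slc7a5 held ranks 4, 5 and 9 among those 3793 rows, and slc7a8a rank 144. At 28 °C the folds were -2.23, -0.17, -2.95 and -3.31, and 3 genes were lower, beside 22.5% of 4378 rows. There slc7a8a and slc7a5 held ranks 12 and 28, glula rank 107 and arg2 rank 2114. The 4 genes were chosen from these contrasts, so nothing is read from their counts.

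**Figure D2:**
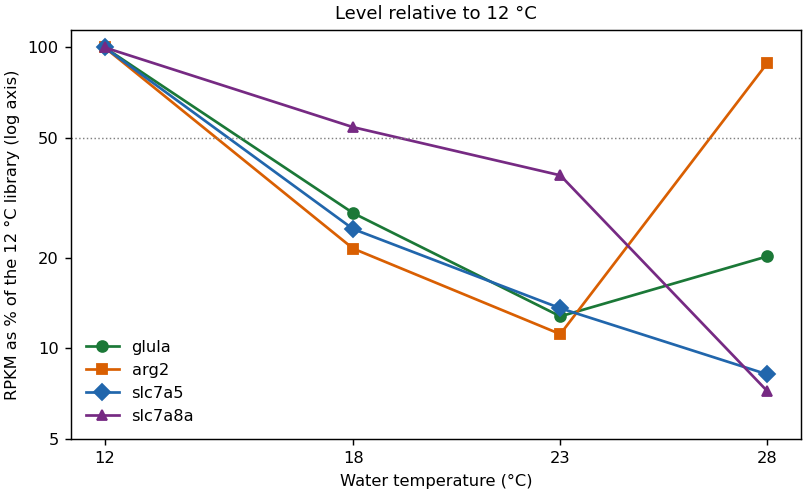
RPKM of the 4 genes as a percentage of the 12 °C library (vertical axis, log scale) against water temperature in °C; each point is 1 library and the dotted line marks 50%. At 18 and 23 °C glula, arg2 and slc7a5 lie close together, between 28.1% and 11.1%, with slc7a8a above them, and at 28 °C the 4 genes spread from 7.19% to 88.8%.

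The steps between neighbouring temperatures do not use the 12 °C library. From 18 to 23 °C all 4 genes were lower again. Only glula passed 2-fold (log2 fold -1.06, 9.20 RPKM at 23 °C against 20.3 RPKM at 18 °C), beside 9.01% of 3906 rows lower and 0.742% higher on that step, and it lay within 2-fold when the libraries were scaled (-0.74 by median ratios, -0.66 by the authors' constants). The log2 folds of arg2, slc7a5 and slc7a8a were -0.80, -0.67 and -0.50. After scaling by median ratios they were -0.51, -0.41 and -0.17, and with the authors' constants -0.44, -0.35 and -0.09. The step of slc7a8a thus nearly vanished under either scaling. From 23 to 28 °C the genes parted. Arginase arg2 was 7.98-fold higher as a ratio of RPKM (log2 fold 2.72), rank 173 from the top of 4070 rows, of which 35.6% were higher. The transporter slc7a8a was lower (log2 fold -1.97, rank 27 from the bottom), beside 7.89% of rows. Within 2-fold lay glula on the higher side (0.61) and slc7a5 on the lower side (-0.48). Scaling by median ratios or the authors' constants left glula at 0.31 and 0.17, so its upturn shrank. It put slc7a5 at -0.73 and -0.82. Both arg2 (2.45 and 2.30) and slc7a8a (-2.29 and -2.39) stayed past 2-fold.

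The order of the levels changed with temperature. It ran glula, arg2, slc7a8a, slc7a5 at 12 °C and glula, slc7a8a, arg2, slc7a5 at 18 °C. At 23 °C slc7a8a (11.8 RPKM) stood above glula (9.20 RPKM), and at 28 °C arg2 (32.0 RPKM) stood above glula (14.6 RPKM). The lowest level in each library was that of slc7a5. The ratio of the highest to the lowest of the 4 levels was 3.95, 4.46, 4.75 and 21.4 from 12 to 28 °C. With 1 library each, whether neighbours in these orders differ beyond the spread between fish is unknown.

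In the authors' deposited table glula, slc7a5 and slc7a8a were placed in cluster 2 and arg2 in cluster 4, of 7 clusters. Likeness between genes was measured as the Euclidean distance between their 3 log2 folds over 12 °C. Among the 4 genes, glula and slc7a5 were the closest pair (0.81) and arg2 and slc7a8a the farthest (3.72). Of 1031 other rows that have a symbol, average 5 RPKM or above and never stand at 0, the 3 closest to glula were slc7a5, slc35e4 (0.87) and the muscle ubiquitin ligase gene fbxo32 (0.87). The level of fbxo32 was 103.4, 16.2, 12.7 and 17.2 RPKM from 12 to 28 °C. For slc7a5 they were slc35e4 (0.67), the muscle cofactor gene vgll2b (0.77) and glula. The closest to slc7a8a were nearer, namely tecra (0.25), the potassium channel gene kcnj12b (0.34) and the splicing regulator gene mbnl1 (0.49). No row came as near to arg2, whose closest were the hepcidin gene hamp (1.55), the proteasome activator gene psme4 (1.63) and malt3 (1.87). From 23 to 28 °C hamp went from 4.13 to 7.32 RPKM, against 16.2 RPKM at 12 °C, so it came back only in part. On that step psme4 went from 8.31 to 12.9 RPKM and malt3 from 3.00 to 5.69 RPKM. Their 12 °C levels were 26.1 and 9.26 RPKM, so they too came back in part.

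Around glula, the enzymes that break glutamine down differed among themselves. The glutaminase genes gls2 and gls2b, whose products release ammonia from glutamine, were at 9.48, 8.05, 2.04 and 0.840 RPKM and at 7.46, 4.41, 2.38 and 0.932 RPKM from 12 to 28 °C. Both were thus lower with each step, with log2 folds of -2.51 and -2.13 at 28 °C. That shape was held by 14.9% of all 11646 rows and by 4 of the 12 other rows of the glutamine and glutamate list. The third glutaminase gene, gls, was at 3.99, 4.49, 3.58 and 14.8 RPKM and was high at 28 °C alone (1.66). Of the 12 other rows of the glutamine and glutamate list, 8, 7 and 8 met the minimum at 18, 23 and 28 °C. None was lower at 18 °C, beside 2.68% of all rows, and 2 were lower at 23 °C (gls2 and gls2b), beside 10.8%. At 28 °C 5 were lower, beside 22.5% of all rows, as abat, asnsd1 and gmps joined them. The GABA transaminase gene abat stood at 8.95 RPKM at 28 °C, against 34.4 RPKM at 12 °C, and asnsd1, a relative of asparagine synthetase, at 15.4 RPKM, against 69.4 RPKM. Higher at 28 °C were 3 rows, namely gls and the proline synthesis genes aldh18a1 and pycr1a (2.29 and 4.95 RPKM, against 0.0558 and 1.83 RPKM at 12 °C). These 3 of 8 are close to the 34.2% higher over all rows. At 18 °C 1 row was higher, beside 7.66% of all rows. It was the aspartate aminotransferase gene got1 (0.0171, 3.02, 0.0174 and 0.371 RPKM from 12 to 28 °C), which is in the authors' cluster 1 with all 34 liver marker rows. The part of liver RNA in it was not tested. The list median was -0.11, -0.27 and -0.15 at 18, 23 and 28 °C, beside 0.00, -0.03 and 0.02 over all rows. No row is named glulb, the symbol of the paralog of glula.

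Around arg2, the cytosolic arginase gene arg1 did not share its dip, at 3.83, 4.17, 3.27 and 1.93 RPKM from 12 to 28 °C. Of the 12 other rows of the arginine and polyamine list, 9, 9 and 10 met the minimum at 18, 23 and 28 °C. At 18 and 23 °C none was lower, beside 2.68% and 10.8% of all rows, and 1 was higher, beside 7.66% and 2.98%. With 9 rows, these counts are near the shares over all rows. The higher row was gatm, whose product takes arginine into creatine synthesis, at 28.2, 73.7, 102.3 and 46.1 RPKM from 12 to 28 °C. Its 2 high libraries were the middle ones, where arg2 was low. At 28 °C 3 rows were higher, beside 34.2% of all rows, and 3 were lower, beside 22.5%. The argininosuccinate lyase gene asl, whose product releases arginine, was at 14.3, 8.34, 11.8 and 63.7 RPKM from 12 to 28 °C (log2 fold 2.08 at 28 °C). Ornithine decarboxylase (odc1), which opens polyamine synthesis from the ornithine that arginase yields, was at 0.770, 0.664, 0.442 and 4.94 RPKM (1.75). Both were high in the 28 °C library alone, the one in which arg2 was again near its 12 °C level. The third, azin1b, lay at the bound (1.00), while its namesake azin1, likewise an inhibitor of the odc1 antizyme, was lower (-1.23), as were otc, which uses ornithine (-1.12), and agmat (-1.01). The list median was -0.07, -0.28 and -0.34 at 18, 23 and 28 °C.

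**Figure D3:**
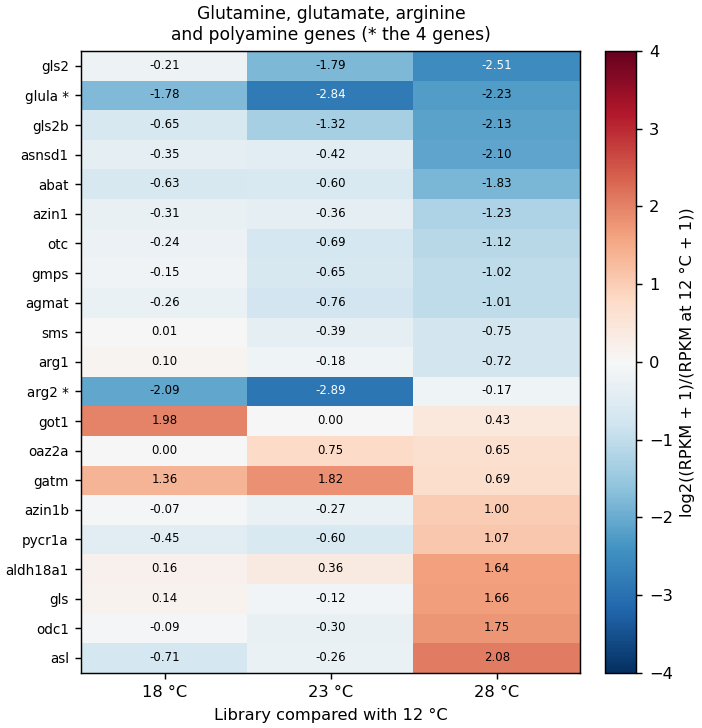
Log2 fold of RPKM + 1 over the 12 °C library (colour and printed value) for glula, arg2 (starred) and the listed glutamine, glutamate, arginine and polyamine genes that reach 1 RPKM in a library, 21 rows sorted by the 28 °C fold. Columns are the libraries at 18, 23 and 28 °C; glula and arg2 hold the lowest values at 18 and 23 °C, and asl (2.08) the highest at 28 °C.

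Markers of macrophages and other leukocytes, for which arginase is known as a marker of an activation state, moved in part with arg2. Of 20 such genes listed, 5 had a row. Their summed level was 11.7, 6.37, 4.46 and 19.0 RPKM from 12 to 28 °C, so it was low in the same 2 libraries as arg2. The myeloid transcription factor gene spi1 was at 4.16, 2.09, 1.64 and 6.39 RPKM, and the phagocyte oxidase genes ncf1 and cybb were at 1.44, 0.480, 0.344 and 2.88 RPKM and at 1.02, 0.389, 0.0759 and 1.53 RPKM. The scavenger receptor gene marco was at 3.71, 2.07, 0.834 and 2.21 RPKM. The exception was the macrophage gene mpeg1, at 1.35, 1.34, 1.56 and 6.02 RPKM. Thus 4 of 5 markers lay below 12 °C at 18 and 23 °C and above their 23 °C level at 28 °C. That shape was held by 17.6% of all 11646 rows, counted without a minimum level. It was also that of glula (9.20 RPKM at 23 °C and 14.6 RPKM at 28 °C). Of the 5 markers, 3, 3 and 5 met the minimum at 18, 23 and 28 °C. None was higher or lower at 18 °C, beside 7.66% and 2.68% of all rows. At 23 °C marco alone was lower, beside 10.8%, and none was higher. At 28 °C mpeg1 alone was higher, beside 34.2%, and none was lower. The dip of spi1 lay within 2-fold at 18 and 23 °C, while ncf1 and cybb were below the minimum there and could not be called. From 23 to 28 °C 4 markers met the minimum. Of these, 3 were higher (spi1, ncf1 and mpeg1), beside 35.6% of all rows, and 0 were lower, beside 7.89%. None of the 5 was at 0 in any library. Their part in the levels of arg2 was not tested.

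**Figure D4:**
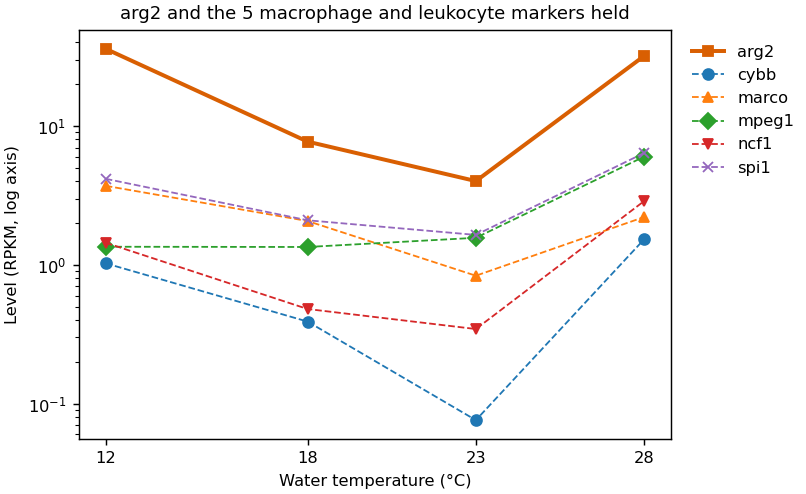
RPKM (vertical axis, log scale) of arg2 (solid line) and of the 5 macrophage and leukocyte markers with a row (dashed lines) against water temperature in °C; each point is 1 library. The level of arg2 and of 4 markers is lower at 18 and 23 °C than at 12 °C and higher at 28 °C than at 23 °C, while mpeg1 is flat up to 23 °C (1.34 to 1.56 RPKM).

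Around the transporters, the gene of their shared heavy chain, slc3a2, was at 153.6, 99.5, 37.7 and 26.1 RPKM from 12 to 28 °C. It too was lower at each step, with log2 folds of -0.62, -2.00 and -2.51 over 12 °C. Of the 34 other rows of the amino acid transport list, 3 were lower at each step, beside 14.9% of all rows. The gene slc3a2 was singled out for its role after its values were seen. At every temperature its level was above those of slc7a5 and slc7a8a summed. The row named slc7a8, which is not slc7a8a, stayed between 0.0724 and 0.197 RPKM. The arginine and lysine transporter gene slc7a1a was at 9.17, 13.1, 9.06 and 3.60 RPKM, lower than 12 °C at 28 °C alone (-1.15).

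Of the 34 other rows of the amino acid transport list, 10, 11 and 13 met the minimum at 18, 23 and 28 °C. None of the 10 was higher or lower at 18 °C, beside 7.66% higher and 2.68% lower over all rows. With 10 rows, these counts are near those shares. At 23 °C 5 of 11 were lower and none was higher, beside 10.8% lower and 2.98% higher over all rows. They were slc3a2, the taurine transporter gene slc6a6, the glycine transporter gene slc6a9, the glutamine and alanine transporter gene slc38a2 and the aromatic amino acid transporter gene slc16a10. For slc6a6 the levels were 26.4, 23.2, 4.54 and 1.90 RPKM from 12 to 28 °C, so it was high at 18 °C where slc7a5 was low (log2 fold -3.24 at 28 °C). The 23 °C library was the lowest for slc38a2, at 7.07, 6.07, 1.47 and 7.56 RPKM, a dip that leaves out 18 °C, unlike that of arg2. At 28 °C 6 of 13 were lower, beside 22.5% of all rows, and 2 were higher, beside 34.2%. The lower ones were slc6a6, slc3a2, slc38a4, slc6a9, slc43a1b and slc7a1a. The higher ones were low genes, the glutamate transporter gene slc1a6 (0.152, 0.843, 1.55 and 2.32 RPKM from 12 to 28 °C) and the glycine transporter gene slc6a5 (1.06, 0.0153, 1.00 and 4.88 RPKM). The list median was 0.01, -0.05 and -0.02 at 18, 23 and 28 °C, since most of its 34 rows had low levels in all libraries.

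**Figure D5:**
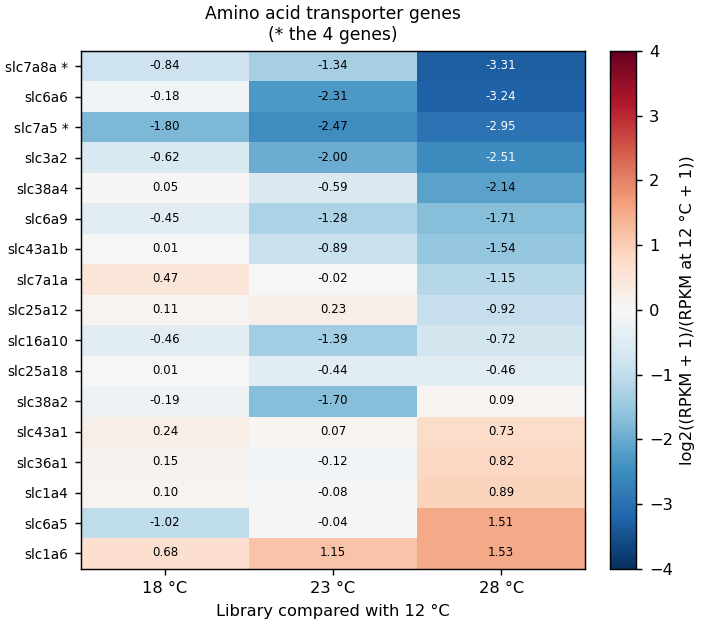
Log2 fold of RPKM + 1 over the 12 °C library (colour and printed value) for slc7a5, slc7a8a (starred) and the listed amino acid transporter genes that reach 1 RPKM in a library, 17 rows sorted by the 28 °C fold. Columns are the libraries at 18, 23 and 28 °C; slc7a8a, slc6a6, slc7a5 and slc3a2 hold the 4 lowest values at 28 °C, and at 18 °C slc7a5 is the lowest (-1.80).

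Genes that sense amino acids or answer their shortage had 22 rows, none of them among the 4 genes, and 20, 20 and 19 met the minimum at 18, 23 and 28 °C. At 18 °C 4 were lower, beside 2.68% of all rows, and none was higher, beside 7.66%. The lower ones were sesn1 and sesn2, whose products hold back mTOR, shmt2 of serine and glycine metabolism and the transcription factor gene cebpb. All lay just past the 2-fold bound, with log2 folds of -1.04, -1.03, -1.04 and -1.09 in that order. At 23 °C 1 was lower, sesn1, beside 10.8% of all rows, and none was higher, beside 2.98%. The level of sesn1 was 52.7, 25.1, 14.1 and 6.62 RPKM from 12 to 28 °C, lower at each step like slc7a5 and slc7a8a. That shape was held by 5 of the 22 rows and by 14.9% of all rows. At 28 °C 9 of 19 were higher, beside 34.2% of all rows, and 4 were lower, beside 22.5%, which is close to their share. The higher ones were atf4a, atf4b, atf5b, atf3, ddit3, ddit4, chac1, cebpb and sec13. Of these, atf4a, a gene of the main factor of the shortage response, stood at 142.8 RPKM at 28 °C, against 39.1 RPKM at 12 °C. Whether amino acids were short in these fish was not tested. The factor gene atf3 was at 21.2 RPKM at 28 °C, against 0.680 RPKM at 12 °C, ddit3 at 30.8 against 6.01 RPKM and sec13 at 32.6 against 6.05 RPKM. From the glutamine list, the gene asns, an ATF4 target in mammals, makes asparagine from glutamine. It was higher at each step, at 0.183, 0.244, 0.330 and 0.549 RPKM from 12 to 28 °C, but below the minimum, so it could not be called. Within the sensing list, psat1 (0.371, 1.23, 0.809 and 0.599 RPKM) and psph (1.51, 3.27, 2.74 and 1.29 RPKM) were highest at 18 °C. The level of shmt2 was highest at 12 °C (23.6 against 15.2 RPKM at 28 °C). The rows lower at 28 °C were sesn1, rps6kb1b and 2 genes of restraint on translation or mTOR. These 2 were eif4ebp3 (164.2, 135.8, 113.1 and 37.5 RPKM from 12 to 28 °C) and deptor (8.43, 7.19, 4.40 and 0.666 RPKM). The level of cebpb, at 9.03, 3.73, 4.08 and 28.5 RPKM, was low at 18 and 23 °C, the libraries in which arg2 was low, and highest at 28 °C. Its log2 fold at 23 °C lay within 2-fold (-0.98). Of the 22 rows, 4 lay below 12 °C at 18 and 23 °C and above their 23 °C level at 28 °C. That is near the 17.6% of all rows with this shape. The list median was -0.12, -0.18 and 0.13 at 18, 23 and 28 °C.

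The counts of lower and higher rows depended on scaling at 23 °C. There 21.7% of the called rows were higher as deposited, 55.1% after scaling by median ratios and 53.3% with the authors' constants, because these methods multiply the 23 °C library by 1.28 and 1.27 (0.35 on the log2 scale). The 4 genes stayed lower at 23 °C by 2-fold or more under both, with slc7a8a close to that bound (log2 fold -1.01 after median scaling). At 18 °C 74.1% of called rows were higher as deposited, 61.5% with a pseudocount of 0.1 and 31.7% without the authors' cluster 1. Leaving out that cluster took the higher rows from 314 to 51 and left the lower rows at 110. The last share thus restates which rows the cluster holds.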

How the data were processed

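RNA of 24 samples from gill, liver and muscle is described in the labels, and the deposited table has columns for 4 of them; the other 20 were not analysed here. RPKM values were made by the authors, with TopHat2 and Cufflinks per the submitters' processing notes; build, annotation and treatment of duplicates are not stated there. The 3 comparison columns deposited by the authors are natural log ratios by their values, although log2 per the file headers. They served for scaling constants (factors 0.942, 1.27 and 0.91) and to read how rows had been selected. A RefSeq gene table (ASM2471397v2) held 5836 of the 7526 numbered IDs and gave 2788 of them a symbol. Folds were computed in Python 3.11.15 as log2((RPKM + 1)/(RPKM + 1)). Calls need 2-fold and a pair mean of at least 1 RPKM. Calling was run on simulated data, which checks the calling rule alone. That run cannot tell how often real calls are wrong, since the spread between fish and the depth are unknown. There is no p-value, because each temperature has 1 library. List symbols match with or without a paralog letter (a to d, or l); hpd, matched by the letters hp, was dropped from the liver list. From each list the 3 largest called folds in each direction are named; other genes named from lists or singled out were chosen after their values were seen. The 4 genes and the lists were chosen with earlier results of these data known. Alternatives were a pseudocount of 0.1, scaling by median ratios or the authors' constants, no minimum, a minimum of 5 RPKM and, chosen after seeing the data, leaving out the authors' cluster 1.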

Additional observations from a re-analysis of the deposited data

How the results depend on the processing

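Over 20 folds of the 4 genes and 5 other settings, 98 of 100 kept their direction and their side of 2-fold. The exceptions were glula from 18 to 23 °C, at -0.74 with median scaling and -0.66 with scaling by the authors' constants. The settings with no minimum or a minimum of 5 RPKM could not change a fold, since the minimum plays no part in it. Their agreement is thus no sign of robustness. Ranges of the log2 fold at 28 °C were -2.36 to -2.21 for glula, -0.30 to -0.14 for arg2, -3.53 to -2.94 for slc7a5 and -3.74 to -3.30 for slc7a8a. Among list counts, 20 of 144 moved by over 1.5 times. With a minimum of 5 RPKM, glutamine rows numbered 0 higher at 18 °C, 1 lower at 23 °C, and 1 higher and 3 lower at 28 °C, and transport rows 2 lower at 23 °C and 0 higher and 3 lower at 28 °C. With no minimum, 1 transport row was lower at 18 °C and 1 higher at 23 °C. With either scaling at 23 °C, 4 sensing, 2 arginine and 1 transport rows were higher. A pseudocount of 0.1 gave 1 higher sensing row at 18 °C, and 2 higher and 2 lower at 23 °C. Without cluster 1, 3 transport rows were lower at 23 °C and 0 glutamine rows higher at 18 °C.

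Over all rows as deposited, the 18 °C library had 314 higher and 110 lower, the 23 °C library 113 higher and 408 lower, the 28 °C library 1497 higher and 984 lower. A minimum of 5 RPKM left 152 and 72, 64 and 228, 795 and 530. A pseudocount of 0.1 gave 264 lower at 18 °C, 210 higher and 754 lower at 23 °C, and 1538 lower at 28 °C. Median scaling gave 239 higher and 195 lower at 23 °C, the authors' constants 231 and 202. Without cluster 1, 51 were higher at 18 °C. Causes were not tested. No paired analysis was possible because each temperature has 1 library. Depth is unknown, so the counting error of low values could not be given.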

Other observations

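Lists of the neighbouring pathways held few rows. Of the branched-chain amino acid breakdown genes, which use what slc7a5 is known to carry, 2 rows were held against 25 symbols in the RefSeq table, and neither reached 2-fold over 12 °C in any library as a ratio of RPKM + 1, which understates the change of such low genes. The phosphatase gene ppm1k, whose product switches that pathway on, was at 3.26, 3.34, 1.40 and 1.38 RPKM from 12 to 28 °C, and hibadha of valine breakdown at 1.35, 2.34, 2.12 and 2.76 RPKM. The Rhesus family genes, ammonia transporters among them, had 4 rows, all below 1 RPKM in every library. The highest value was that of rh50, 0.889 RPKM at 18 °C. Like got1, rh50 is in the authors' cluster 1 with all 34 liver marker rows, and the part of liver RNA in it was not tested.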
